A study of Bos taurus and Bos grunniens and Bubalus bubalis with 15 samples.

Results

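The polyamine metabolism genes examined here were ODC1, AMD1, SRM, SAT1 and OAZ1, taken as every probe set whose platform gene symbol is one of these 5 names. They had 7 probe sets of 24016 on the array that are not controls: 2 for ODC1, 2 for AMD1 and 1 each for SRM, SAT1 and OAZ1. A probe set is a group of short probes against 1 transcript, and its value is a hybridisation intensity on a linear scale. Of the 7, 6 were among the 14409 probe sets bright enough to test, and the dimmer ODC1 probe set was not.

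Putrescine, spermidine and spermine are small positively charged molecules that bind RNA and DNA and are needed for cell growth and for translation. ODC1 (ornithine decarboxylase) makes putrescine, AMD1 supplies the aminopropyl groups by decarboxylating S-adenosylmethionine, and SRM joins such a group to putrescine to make spermidine. SAT1 acetylates spermidine and spermine so that they can be exported or oxidised, and OAZ1 is the antizyme that binds the ODC1 protein and delivers it to the proteasome. The mRNAs of ODC1 and AMD1 turn over quickly, and in mouse kidney Odc1 is a well-known target of androgens.

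The tissue was longissimus dorsi, a long back muscle, from 15 animals slaughtered at 36 months of age, 3 in each of 5 groups and 1 array per animal. The groups were Guangxi buffalo (Bubalus bubalis), Qinghai yak (Bos grunniens), and females, castrated males and intact males of Qinchuan cattle, a Chinese beef breed. The cattle were born within a 30-day window, had a similar genetic background and were kept under the same conditions. No source used here gives the sex of the yak and buffalo or the age at castration.

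The arrays were close in overall level, and their medians of log2(intensity + 16) ran between 6.71 and 6.81. Muscle fibre markers were bright in every group, with a summed intensity of 89521 to 121877 over the 9 of 12 listed genes that had a probe set. Intact male 1 stood apart. Its mean correlation with its own group across probe sets was 0.931, the lowest of the 15 arrays, and its 12 macrophage markers summed to 26926, against 970 to 6581 on all other arrays. Signal at the 3' end of actin over that at its 5' end, which rises as RNA degrades, was 1.42 to 1.73 in buffalo, 1.49 to 1.93 in yak, 1.22 to 1.33 in females, 1.24 to 1.27 in castrated males and 1.17 to 1.48 in intact males. The array carries cattle sequence, so in yak and buffalo a difference in RNA and a difference in probe binding cannot be told apart. Values below are intensities, group values are means ± SD over n = 3 arrays, and differences are log2 fold changes with 16 added to the intensities, tested with limma and adjusted over the 14409 probe sets by Benjamini-Hochberg.

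**Figure D1:**
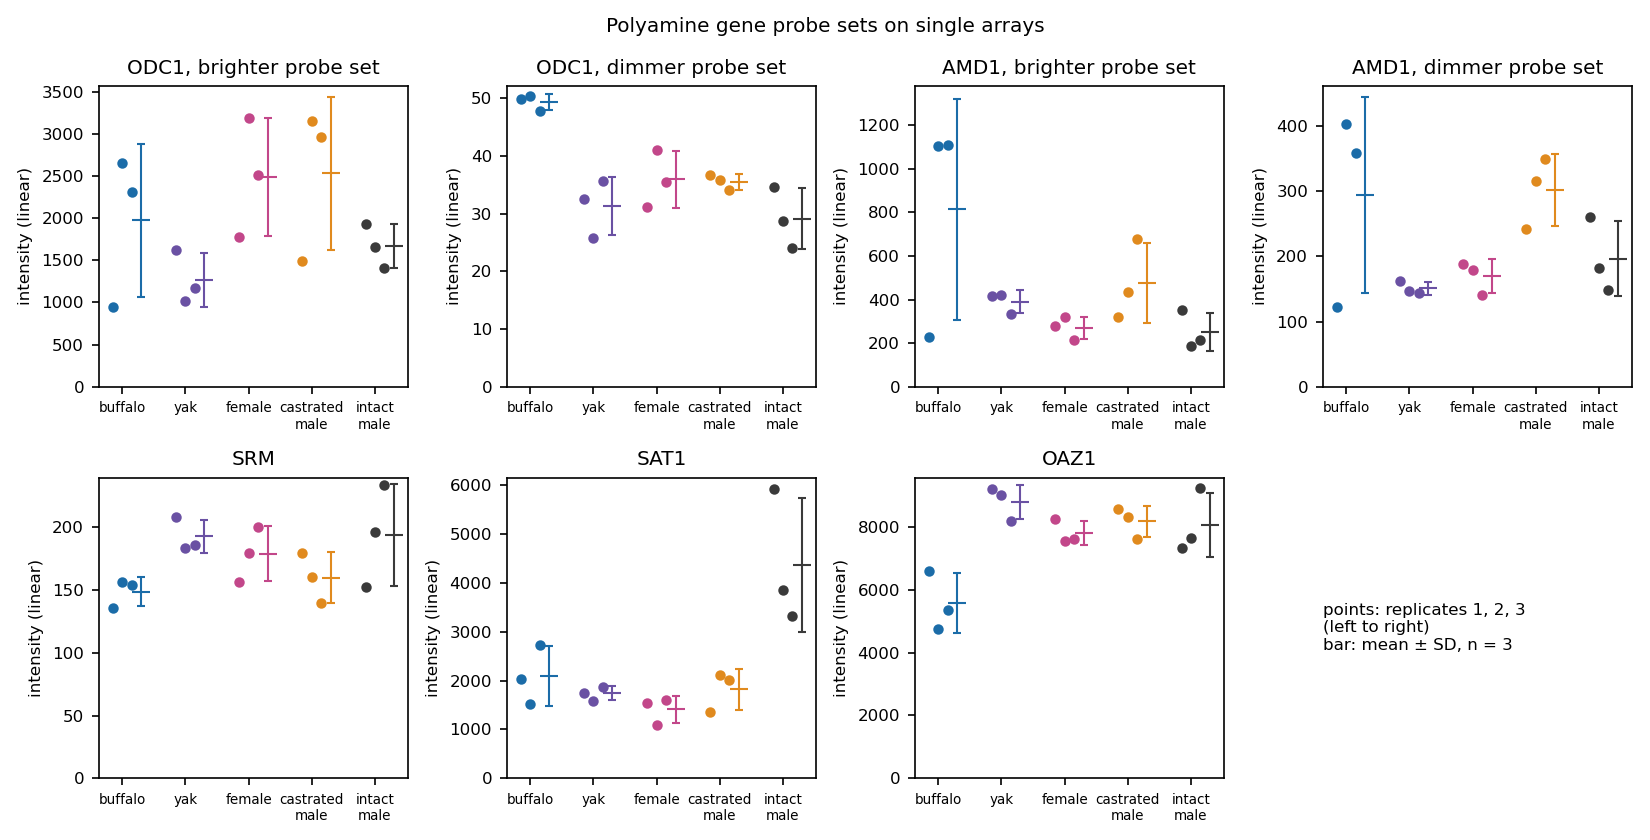
Intensity (linear scale) of the 7 probe sets of ODC1, AMD1, SRM, SAT1 and OAZ1 on each of the 15 arrays, with points for replicates 1, 2 and 3 from left to right and bars for the mean ± SD of n = 3. SAT1 was highest on the 3 intact male arrays (3328 to 5912), OAZ1 was lowest on the 3 buffalo arrays (4743 to 6609), and ODC1 and AMD1 were low on buffalo array 1.

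Among the cattle groups SAT1, the enzyme that starts polyamine breakdown, was the member that differed. Its intensity was 1537, 1091 and 1603 in females 1 to 3 and 1346, 2120 and 2012 in castrated males 1 to 3, against 5912, 3844 and 3328 in intact males 1 to 3. No intact male overlapped any female or castrated male, and the highest of the 6 was 2120, against 3328 in the lowest intact male. SAT1 averaged 1410 ± 279 in females and 4361 ± 1367 in intact males, a fold of 0.331. It fell in females with a log2 fold change of -1.59 (SE 0.26, limma adjusted p = 0.0181, 95% interval -2.18 to -1.01). The castrated males averaged 1826 ± 419, and their difference from the same intact males was -1.23 (SE 0.26, 95% interval -1.82 to -0.65), which missed the threshold at an adjusted p of 0.0567. In whole muscle, fewer cells that hold a transcript and less of it per cell cannot be told apart.

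Females and castrated males were not shown to differ from each other in SAT1, with a log2 fold change of -0.36 (SE 0.26, limma adjusted p = 0.796, 95% interval -0.95 to 0.22). The test for any difference among the 3 cattle groups gave SAT1 an adjusted p of 0.0338, and SAT1 was the 1 of 6 member probe sets to pass it, where 1.96% of all probe sets did. That adjusted p was 0.120 without intact male 2, 0.0538, 0.0690 and 0.0646 without castrated males 1, 2 and 3, and 0.0663, 0.0831 and 0.0770 without females 1, 2 and 3. The female fall was -1.66 without intact male 2 (adjusted p = 0.0607), -1.42 without female 2 (0.0711) and -1.70 without female 3 (0.0559). The castrated difference was -1.40 without intact male 3, where it passed (adjusted p = 0.0272), and it also passed with all 15 arrays in 1 fit (0.0182), after quantile normalisation (0.0494) and with array weights (0.00347). These were 4 of 18 alternatives, and the highest limma adjusted p among the 18 was 0.154. The estimation of array weights stopped before it converged, here and in every later use.

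Markers of macrophages and fibroblasts moved with SAT1 across the cattle. The 12 of 14 macrophage markers with a probe set summed to 970 to 2070 in females and 2156 to 3079 in castrated males, against 4485 to 26926 in intact males. None of them was at 0, and the defining marker CD68 averaged 55.4 ± 30.1 in females and 85.5 ± 13.0 in castrated males, against 1382 ± 1680 in intact males. Of 11 macrophage markers tested, 7 fell in females against intact males, where 3.37% of all probe sets fell, with a median log2 fold change of -2.39, and 0 fell in castrated against intact males, where 0.84% of all probe sets did, with a median of -1.66. The 9 fibroblast markers summed to 9628 to 12461 in females and 13578 to 14377 in castrated males, against 35458 to 48469 in intact males. Of these 9, 8 fell in females and 6 in castrated males, against the same shares of 3.37% and 0.84% overall.

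Leaving out intact male 1, the array with the most macrophage signal, SAT1 fell in females at -1.35 (limma adjusted p = 0.0227). The castrated difference was then -0.99 (adjusted p = 0.0810). The other intact males had macrophage sums of 6581 and 4485 and fibroblast sums of 39091 and 35458, above all females and castrated males. Leaving out intact male 1 therefore cannot part SAT1 from these markers. Buffalo and yak had macrophage sums of 1037 to 1341 and 1353 to 1469, within the range of the females. SAT1 was 1524 to 2733 in buffalo and 1589 to 1870 in yak, against 1091 to 1603 in females. The part of these cells in the SAT1 difference was not tested. Adipocyte markers overlapped between all 3 cattle groups, with sums of 1231 to 3804 in females, 1047 to 2632 in castrated males and 505 to 4546 in intact males. Endothelial markers overlapped as well, with 1664 to 2323 in females, 1377 to 2027 in castrated males and 1251 to 2180 in intact males. T and B cell markers, 5 of them, were dim in all groups, with sums between 421 and 558.

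**Figure D2:**
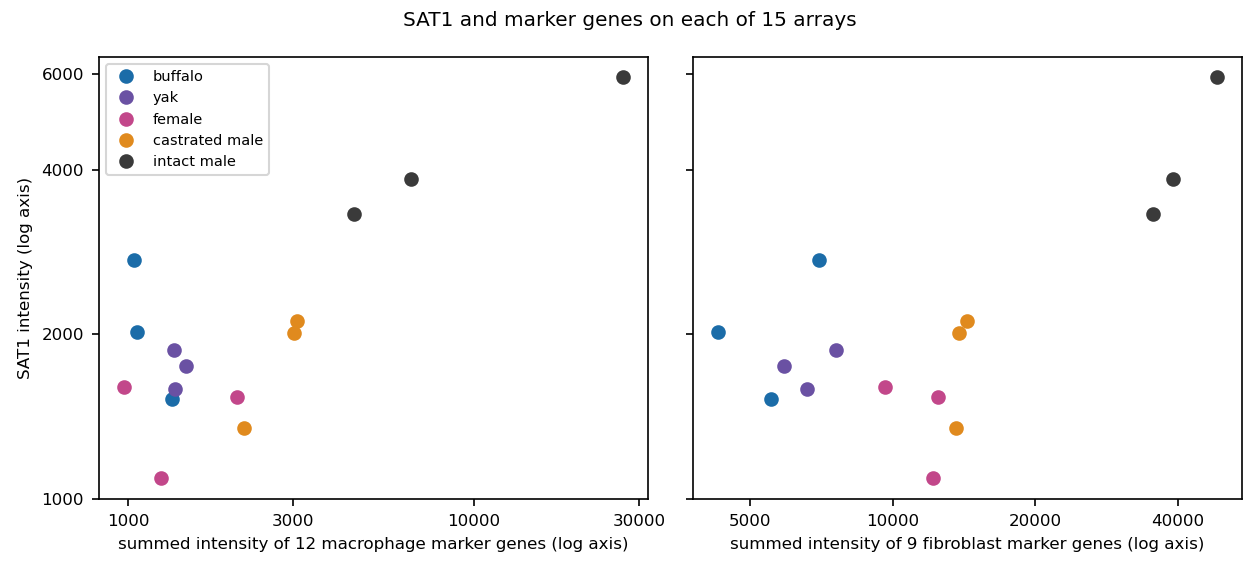
SAT1 intensity against the summed intensity of 12 macrophage markers (left) and 9 fibroblast markers (right) on each of the 15 arrays, with log axes and 1 point per array. The 3 intact males lie apart at the upper right of both panels, and among the other 12 arrays SAT1 stays between 1091 and 2733.

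Over all 5 groups the order of SAT1 means was intact male (4361), buffalo (2093 ± 608), castrated male (1826), yak (1738 ± 142) and female (1410). The ranges were apart only between intact males and the group next in order, and each later neighbour overlapped the one before. SAT1 was not shown to differ between species. The log2 fold change was -0.34 for yak minus cattle (SE 0.21, adjusted p = 0.241) and -0.11 for buffalo minus cattle (SE 0.21, adjusted p = 0.687), or 0.15 after quantile normalisation. Buffalo minus yak was 0.23 (SE 0.25, adjusted p = 0.495). The comparisons with cattle both turned positive when cattle were represented by castrated males and females alone, at 0.13 (adjusted p = 0.705) and 0.36 (adjusted p = 0.190).

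ODC1, the first enzyme of synthesis, was measured by a bright probe set with 951 to 3183 over the 15 arrays. It read 1773, 3183 and 2507 in females 1 to 3 and 1490, 3150 and 2961 in castrated males 1 to 3, against 1931, 1662 and 1415 in intact males 1 to 3. Female 1 and castrated male 1 lay among the intact males, so the groups overlapped, although 2 of 3 animals in each of these groups exceeded every intact male. The log2 fold change was 0.54 for female minus intact male (SE 0.31, adjusted p = 0.276, 95% interval -0.15 to 1.23) and 0.53 for castrated minus intact male (SE 0.31, adjusted p = 0.353, 95% interval -0.15 to 1.22). Both comparisons use the same 3 intact males. Female minus castrated male was 0.01 (adjusted p = 0.997, 95% interval -0.68 to 0.70).

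AMD1, which feeds both aminopropyl steps, was highest among cattle in the castrated males. Its brighter probe set read 277, 319 and 216 in females 1 to 3 and 318, 433 and 678 in castrated males 1 to 3, against 351, 185 and 216 in intact males 1 to 3. Its dimmer probe set read 189, 180 and 141 in females and 242, 315 and 349 in castrated males, against 259, 182 and 149 in intact males. The castrated males were above every female in the dimmer probe set and overlapped the females by 1 array in the brighter one. For castrated minus intact male the log2 fold changes were 0.87 (SE 0.30, adjusted p = 0.160) and 0.60 (SE 0.21, adjusted p = 0.164). For female minus castrated male they were -0.73 (SE 0.30, adjusted p = 0.634) and -0.77 (SE 0.21, adjusted p = 0.532). Neither comparison passed over all probe sets. Females and intact males overlapped in both probe sets, with differences of 0.14 (adjusted p = 0.800) and -0.17 (adjusted p = 0.630). Array weights give outlying arrays less say, and their estimation stopped before it converged. With them AMD1 (1.21 and 0.72) and ODC1 (0.70) passed in castrated against intact males, with limma adjusted p of 0.00344, 0.00458 and 0.0352. ODC1 also passed with them in females against intact males (0.63, adjusted p = 0.0398). Each of these passed in that 1 of 18 alternatives only.

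SRM, spermidine synthase, and OAZ1, the antizyme, gave no call among cattle. SRM was 157, 179 and 201 in females and 180, 161 and 140 in castrated males, against 152, 196 and 234 in intact males, with all ranges overlapping. OAZ1 was 8237, 7543 and 7607 in females and 8572, 8329 and 7624 in castrated males, against 7319, 7646 and 9227 in intact males. Among the member probe sets tested, OAZ1 varied least in proportion. Its SD was 4.92% of the mean in females, 6.03% in castrated males and 12.7% in intact males. Its log2 fold changes were -0.04 for female minus intact male (95% interval -0.27 to 0.19, and 0.00 after quantile normalisation or median centring) and 0.03 for castrated minus intact male (95% interval -0.20 to 0.25).

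Counted over the 6 probe sets tested, 0 passed in castrated against intact males (1.46% of all probe sets did), 1 in females against intact males (5.5%), where the fall of SAT1 stands against 3.37% of probe sets that fell, and 0 in females against castrated males (0.0208%). At an unadjusted p under 0.05 there were 3 of 6 in castrated against intact males, both AMD1 probe sets and SAT1, where 20.5% of all probe sets reached it. For females against castrated males there were 2 of 6, both of AMD1, where 7.55% reached it, and for females against intact males 1 of 6, SAT1, where 27.7% did. Groups did not overlap in 1 of 6 probe sets in each of these comparisons, where the shares over all probe sets were 24.8% for castrated against intact males, 33.1% for females against intact males and 17.5% for females against castrated males. With 6 probe sets, of which 2 share a gene, a single probe set moves each of these counts a great deal, and nothing is read from them about the genes as a group. The median log2 fold change of the members was 0.28, -0.07 and -0.21 in the 3 comparisons, where the median of all probe sets was -0.00, 0.01 and 0.00.

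**Figure D3:**
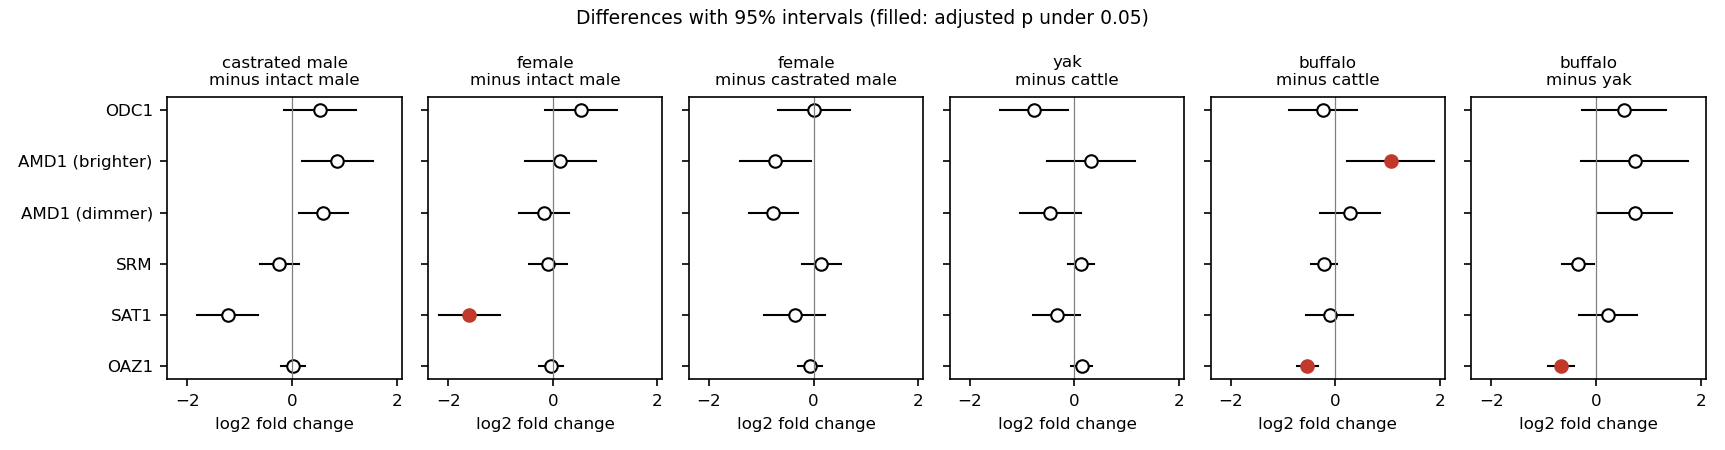
Log2 fold change (points) with 95% interval (lines) of the 6 member probe sets tested in 6 comparisons, with filled red points at an adjusted p under 0.05. SAT1 passed in females against intact males (-1.59), AMD1 in buffalo against cattle (1.06), and OAZ1 in buffalo against cattle (-0.53) and against yak (-0.67).

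The study also set the other bovids against the cattle. Here the clearest member was OAZ1, which was lower in buffalo. It read 6609, 4743 and 5356 in buffalo 1 to 3 and 9195, 9005 and 8175 in yak 1 to 3, against 7319 to 9227 in the 9 cattle with a median of 7646. All 3 buffalo lay below all 12 other animals. OAZ1 averaged 5569 ± 951 in buffalo and fell with a log2 fold change of -0.53 against cattle (SE 0.10, limma adjusted p = 0.000426, 95% interval -0.74 to -0.33). Against yak, which averaged 8791 ± 542, the fall in buffalo was -0.67 (SE 0.12, adjusted p = 0.000537). Both calls held in all 24 and 23 alternatives run, between -0.66 and -0.35 against cattle and between -0.80 and -0.51 against yak. The value nearest 0 against cattle, -0.35 (adjusted p = 0.00674), came with quantile normalisation.

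Marker genes of several cell types were also lower in buffalo, set against the mean of the 3 cattle groups. Of 9 muscle fibre markers tested, 6 fell and 1 rose in buffalo against cattle with a median of -0.43, where 28.4% of all probe sets fell and 23% rose. Against yak 7 fell and 2 rose with a median of -0.42, where 22.7% fell and 19.5% rose overall. Their sum was 89521 to 93922 in buffalo and 101525 to 111021 in yak, against 93093 to 121877 in cattle. In buffalo against cattle 8 of 9 fibroblast markers fell, with a median of -1.93, and 6 of 11 macrophage markers, with a median of -1.12. Against yak 3 of 9 fibroblast and 2 of 11 macrophage markers fell, with medians of -0.09 and -0.08. Cattle here include the intact males, which had the highest sums of both lists, and no marker comparison was run without them. Macrophage sums of 1037 to 1341 in buffalo were within the 970 to 2070 of females. Fibroblast sums were 4270 to 7003 in buffalo, against 9628 to 12461 in females. The part of these markers and of probe binding in the OAZ1 difference was not tested. Yak OAZ1 was not shown to differ from cattle (0.14, SE 0.10, adjusted p = 0.303), although it passed with array weights (0.17, adjusted p = 0.0446), and in the order of group means the yak (8791), castrated males (8175), intact males (8064) and females (7795) overlapped as neighbours, with buffalo apart below them.

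AMD1 was the member that rose in buffalo, in 1 of its 2 probe sets. The brighter probe set read 229, 1104 and 1111 in buffalo 1 to 3 and 418, 423 and 332 in yak 1 to 3, against 185 to 678 in the 9 cattle with a median of 318. Buffalo 2 and 3 were above every other animal and buffalo 1 was below every yak, so the buffalo mean of 815 ± 507 had an SD of 62.3% of the mean. The log2 fold change against cattle was 1.06 (SE 0.39, adjusted p = 0.0351). It was 1.79 without buffalo 1 (adjusted p = 0.000134), 0.69 without buffalo 2 (0.211) and 0.69 without buffalo 3 (0.214). The call was also lost without intact male 2 (1.00, adjusted p = 0.0569), castrated male 1 (0.97, 0.0564), castrated male 2 (1.05, 0.0513) or female 3 (1.01, 0.0560), and with cattle as castrated males and females alone (0.89, 0.0898).

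The dimmer AMD1 probe set had 122, 402 and 358 in buffalo 1 to 3 and 162, 146 and 144 in yak 1 to 3, against 141 to 349 in cattle with a median of 189. Its difference in buffalo against cattle was 0.28 (SE 0.27, adjusted p = 0.404), which became 0.79 without buffalo 1 (adjusted p = 0.00317). With other single arrays left out that difference went as low as -0.016, and its limma adjusted p as high as 0.971. The 2 AMD1 probe sets differed in how they placed yak. Yak minus cattle was 0.32 in the brighter one (SE 0.39, adjusted p = 0.572) and -0.46 in the dimmer one (SE 0.27, adjusted p = 0.213, or 0.0362 without buffalo 1). Buffalo minus yak was 0.74 in both (SE 0.47 and 0.33, adjusted p = 0.227 and 0.0859). Without buffalo 1 it was 1.47 and 1.25, with adjusted p of 0.00207 and 0.000549. With other single arrays left out it went as low as 0.37 and 0.45. The limma adjusted p then went as high as 0.596 and 0.322.

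The bright ODC1 probe set read 1620, 1012 and 1171 in yak 1 to 3, against 1415 to 3183 in the 9 cattle with a median of 1931. Yak 2 and 3 were below every cattle animal and yak 1 was within their range. Yak minus cattle was -0.77 (SE 0.30, 95% interval -1.42 to -0.11) and missed the threshold at an adjusted p of 0.0729. It passed with array weights (-0.95, adjusted p = 0.00273) and without castrated male 1 (-0.88, adjusted p = 0.0327). It also passed without buffalo 1 (-0.77, adjusted p = 0.0263), which enters only through the shared estimate of the spread. Those were the 3 that passed of 24 alternatives. Values over the 24 ran from -0.96 to -0.62, with limma adjusted p up to 0.258. Buffalo ODC1 was 951, 2658 and 2307 in animals 1 to 3, a mean of 1972 ± 901, and buffalo minus cattle was -0.24 (SE 0.30, adjusted p = 0.532), with 0.07 after quantile normalisation and 0.22 without buffalo 1 (adjusted p = 0.545). Without buffalo 1, ODC1 was higher in buffalo than in yak (0.99, adjusted p = 0.0277, against 0.53 and 0.270 with it). With other single arrays left out that difference went as low as 0.25, and its limma adjusted p as high as 0.651.

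The dimmer ODC1 probe set, left out of the test, had 49.9, 50.5 and 47.9 in buffalo and 25.7 to 35.7 in yak, against 24.0 to 41.0 in cattle. It was highest in the 3 buffalo, including the animal that was lowest in the bright ODC1 probe set. Across the 15 arrays the 2 ODC1 probe sets correlated at r = 0.28 and the 2 AMD1 probe sets at r = 0.80, as a description over arrays that share groups and array level.

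SRM was 136, 157 and 154 in buffalo 1 to 3 and 208, 184 and 186 in yak 1 to 3, against 140 to 234 in cattle with a median of 179. All 3 buffalo were below all 3 yak, with a log2 fold change of -0.34 (SE 0.14, adjusted p = 0.0691). That comparison passed without intact male 1 (adjusted p = 0.0317) or intact male 3 (0.0442), with median centring (-0.40, adjusted p = 0.0461) and with array weights (-0.30, adjusted p = 0.0421). Those were 4 of 23 alternatives, and the highest limma adjusted p among the 23 was 0.188. Buffalo minus cattle was -0.22 (SE 0.12, adjusted p = 0.128), and -0.27 without intact male 1, where it passed (adjusted p = 0.0335). That was 1 of 24 alternatives, and the highest limma adjusted p among the 24 was 0.356. Yak minus cattle was 0.12 (SE 0.12, adjusted p = 0.464), with overlapping ranges.

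Of the 6 member probe sets, 0 passed for yak minus cattle, where 29.1% of all probe sets passed, 13.2% higher and 15.9% lower. Only ODC1 reached an unadjusted p under 0.05 there, where 41.1% of all probe sets did, against 2 of 6 and 57.5% for buffalo minus cattle and 3 of 6 and 50.6% for buffalo minus yak. For buffalo minus cattle 2 passed, AMD1 higher and OAZ1 lower, where 51.4% of all probe sets passed, 23% higher and 28.4% lower. For buffalo minus yak 1 passed, OAZ1 lower, where 42.2% passed, 19.5% higher and 22.7% lower. Groups did not overlap in 0, 1 and 2 of the 6, where the shares over all probe sets were 19.3%, 32% and 55.2%. In each of these comparisons the members called are a smaller share than that over all probe sets. With 6 probe sets, of which 2 share a gene, a single probe set moves these counts a great deal. Nothing is read from them about the genes as a group. Leaving out buffalo 1 took the count for buffalo minus yak to 4 and that for yak minus cattle to 2, and leaving out castrated male 1 took the count for yak minus cattle to 1. Leaving out intact male 1 or intact male 3 took the count for buffalo minus yak to 2, and the count for buffalo minus cattle was 1 wherever the AMD1 call was lost.

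**Figure D4:**
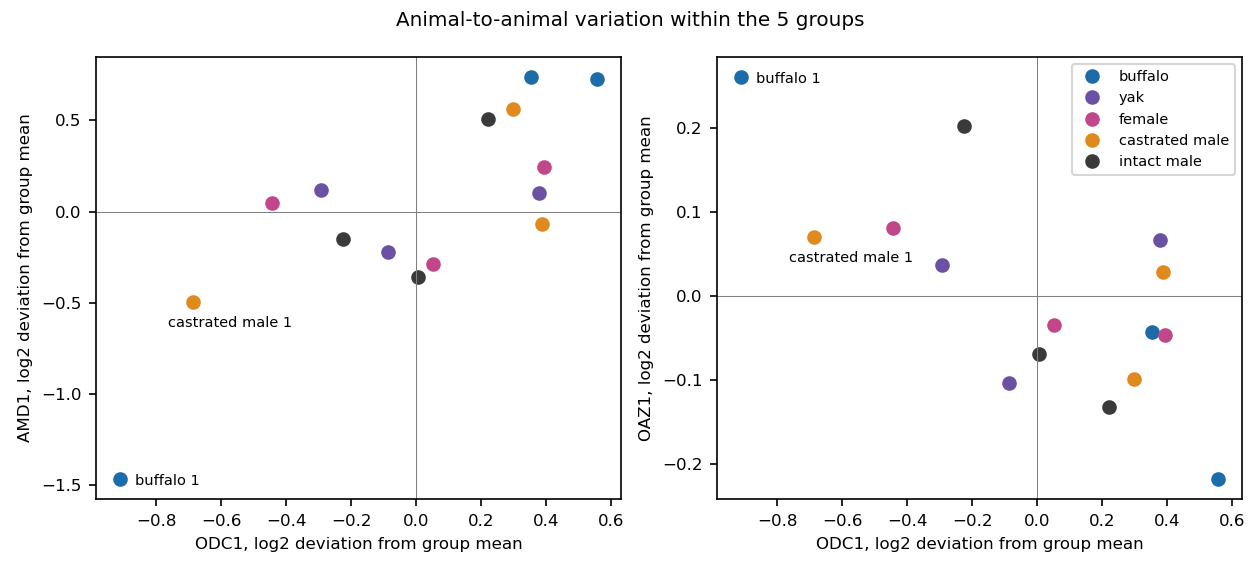
Log2 deviation of each array from its own group mean, AMD1 (left) and OAZ1 (right) against ODC1, for the brightest probe set of each gene, 1 point per array. Buffalo 1 and castrated male 1 lie lowest in ODC1, at -0.91 and -0.69, and both are below 0 in AMD1 and above 0 in OAZ1.

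Within groups, 6 of the 15 arrays were below their group mean in ODC1. Of these 6, 4 were also below it in AMD1, 5 were above it in OAZ1, and 3 were both. Female 1 and yak 2 were above their group mean in AMD1, at 0.05 and 0.12 on the log2 scale, and yak 3 was below it in OAZ1, at -0.10. Among arrays above their group mean in ODC1, intact male 2, castrated male 2 and female 3 were below it in AMD1. Castrated male 2 and yak 1 were above it in both ODC1 and OAZ1. On buffalo array 1 the deviations from the group mean were -0.91 for ODC1, -1.46 for AMD1 and 0.26 for OAZ1 on the log2 scale. On castrated male array 1 they were -0.69, -0.49 and 0.07. Over the 15 arrays, with each group's mean removed, ODC1 and AMD1 had Pearson's r = 0.79 (exact permutation within groups, two-sided p = 0.0234) and Spearman's rho = 0.67 (exact permutation p = 0.0424). ODC1 and OAZ1 had r = -0.71 (exact permutation p = 0.0167) and rho = -0.61 (exact permutation p = 0.0378). AMD1 and OAZ1 had r = -0.71 (exact permutation p = 0.0892) and rho = -0.53 (exact permutation p = 0.128).

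After adjustment over the 10 pairs of members none passed. The smallest adjusted exact permutation p was 0.117 for r, shared by ODC1 with AMD1 and ODC1 with OAZ1, and 0.212 for rho. Without buffalo 1 and castrated male 1, the arrays farthest from the median of ODC1, r was 0.56 for ODC1 with AMD1. For ODC1 with OAZ1 it was then -0.55. The group means were not taken anew, so the arrays left out still shaped the deviations of the others in their groups. These values therefore cannot show what correlation remains without them. SAT1 did not follow ODC1 or AMD1, with r = 0.21 in each case (exact permutation p = 0.567 and 0.656). The 2 buffalo with more ODC1 and AMD1 also had higher 3' to 5' ratios, 1.69 and 1.73 for actin and 1.42 and 1.5 for GAPDH, against 1.42 and 1.22 on buffalo array 1. In castrated males these ratios were within 1.24 to 1.27 and 1.17 to 1.19 on all 3 arrays. The part of RNA quality in the variation among buffalo was not tested.

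Further genes around the pathway were taken from 5 lists of 32 genes, of which 19 had a probe set with that symbol and 15 were bright enough to test. Among cattle 1 of the 15 was called, in females against intact males, where 5.5% of all probe sets passed and 3.37% fell. Nothing is read from this count about the 15 genes as a group. ATP13A3, a transporter that carries polyamines into the cell, read 184, 184 and 175 in females and 195, 306 and 294 in castrated males, against 698, 418 and 296 in intact males. Like SAT1 it was highest in intact male 1 and fell in females (-1.22, SE 0.28, adjusted p = 0.0406), with every female below every intact male. The call was lost without any of intact males 1 (-0.90, adjusted p = 0.0536) and 2 (-1.26, 0.0928), of castrated males 2 (0.0643) and 3 (0.0624), and of females 1 (-1.23, 0.0933), 2 (-1.23, 0.116) and 3 (-1.20, 0.122). The macrophage and fibroblast sums given for SAT1 moved with ATP13A3 as well, and their part in it was not tested. SMS, spermine synthase, the second user of the aminopropyl donor, was 1271 ± 239 in females and 1803 ± 548 in castrated males, against 1986 ± 419 in intact males. For SMS the difference of females from intact males was -0.63 (SE 0.24, adjusted p = 0.131). Every female was below every intact male in SMS, ATP13A3, PAOX (listed for polyamine breakdown) and MAT2B (listed for S-adenosylmethionine supply). Of all probe sets 17.4% lay apart in that direction. In ATP13A2 (listed for polyamine transport) every female was above every intact male, where 15.7% of all probe sets lay apart. PAOX, MAT2B and ATP13A2 were not called in this comparison. SMS and ATP13A3 had 2 probe sets each and ATP13A2 had 3, and only the brightest was read.

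Between species 9 of the 15 passed in buffalo against yak, 5 in buffalo against cattle and 7 in yak against cattle, where 42.2%, 51.4% and 29.1% of all probe sets passed. The share was larger than that over all probe sets in buffalo against yak and in yak against cattle, and smaller in buffalo against cattle. Nothing is read from these counts about the 15 genes as a group. The count for yak minus cattle was 2 without yak 1, 4 without yak 2 and 12 with array weights. OAZ2, a second antizyme, moved with OAZ1 in buffalo. It averaged 162 ± 45.7 in buffalo and 942 ± 230 in yak, against 612 ± 60.3 in females, 466 ± 95.4 in castrated males and 500.0 ± 124 in intact males. OAZ2 fell in buffalo against cattle (-1.61, SE 0.19, adjusted p = 1.78e-05) and against yak (-2.42, SE 0.24, adjusted p = 4.98e-06), and rose in yak against cattle (0.82, SE 0.19, adjusted p = 0.00741, or 0.67 and 0.0600 without yak 1).

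AZIN1, the inhibitor that frees ODC1 from antizyme, fell in yak against cattle (-0.93, SE 0.25, adjusted p = 0.0145), a call lost without yak 1 (-0.86, 0.0747) or yak 2 (-0.88, 0.0691). Its intensities were 684, 1937 and 1664 in buffalo 1 to 3 and 632, 644 and 836 in yak 1 to 3, against 983 to 1846 in cattle. Buffalo 1 was thus the lowest buffalo in AZIN1, as in ODC1 and AMD1. It was also the lowest in fibroblast markers such as COL1A2 and COL3A1, and the highest in OAZ2. How common such an order is over all probe sets was not counted. Buffalo minus yak for AZIN1 was 0.89 (SE 0.31, adjusted p = 0.0347). That call was lost without buffalo 2 (0.60, 0.156), buffalo 3 (0.71, 0.127), yak 1 (0.82, 0.0984) or yak 2 (0.83, 0.0956).

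In the list of S-adenosylmethionine supply and methylthioadenosine salvage, the routes that feed AMD1 and recover its by-product, 3 of 5 genes rose and 1 fell in yak against cattle, where 13.2% of all probe sets rose and 15.9% fell. MAT2B, the regulatory subunit of methionine adenosyltransferase, rose in yak (0.62, SE 0.15, adjusted p = 0.00882) and fell in buffalo against cattle (-0.79, SE 0.15, adjusted p = 0.000702). APIP and MRI1, enzymes of the salvage pathway, rose in yak by 0.68 (SE 0.17) and 0.52 (SE 0.12), while ADI1, a dioxygenase of the same pathway, fell in yak (-1.52, SE 0.13, adjusted p = 7.61e-06) and in buffalo (-0.51, SE 0.13, adjusted p = 0.00609). Without yak 1 the yak calls of MAT2B (0.45, adjusted p = 0.0781) and APIP (0.59, 0.0644) were lost, and without yak 2 that of MRI1 (0.39, 0.0614).

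Against yak, buffalo were lower in MAT2B (-1.41, SE 0.19), APIP (-1.08, SE 0.21) and MRI1 (-0.54, SE 0.15) and higher in ADI1 (1.01, SE 0.17). The call of MRI1 there was lost without yak 2 (-0.41, adjusted p = 0.0604). DHPS, which uses spermidine to begin hypusine formation on the translation factor eIF5A, averaged 382 ± 68.9 in buffalo and 782 ± 49.1 in yak, against 609 ± 20.3 in females, 569 ± 16.1 in castrated males and 513 ± 113 in intact males. DHPS rose in yak (0.47, SE 0.13, adjusted p = 0.0187) and fell in buffalo (-0.55, SE 0.13, adjusted p = 0.00417) against cattle. The first of these was lost without yak 1 (0.42, adjusted p = 0.0958) or yak 2 (0.50, 0.0533) and against castrated males and females alone (0.40, 0.0617), and the second after quantile normalisation (-0.35, 0.0541).

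SLC3A2, the heavy chain of amino acid exchangers that also takes part in polyamine export, rose in buffalo against cattle (0.62, SE 0.15, adjusted p = 0.00363) and yak (0.79, SE 0.18, adjusted p = 0.00383). SAT2, a relative of SAT1, was lower in buffalo than in yak (-0.50, SE 0.15, adjusted p = 0.0140), a call lost without yak 1 (-0.46, 0.0514) or yak 2 (-0.47, 0.0505). Over the 15 genes 5 rose and 2 fell in yak against cattle, where 13.2% of all probe sets rose and 15.9% fell. In buffalo against cattle 1 rose and 4 fell, where 23% of all probe sets rose and 28.4% fell, and in buffalo against yak 3 rose and 6 fell, where 19.5% of all rose and 22.7% fell. Their median log2 fold changes were 0.16, -0.20 and -0.10, where the medians of all probe sets were -0.02, -0.03 and 0.01. Each pair of these comparisons shares the arrays of 1 species.

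**Figure D5:**
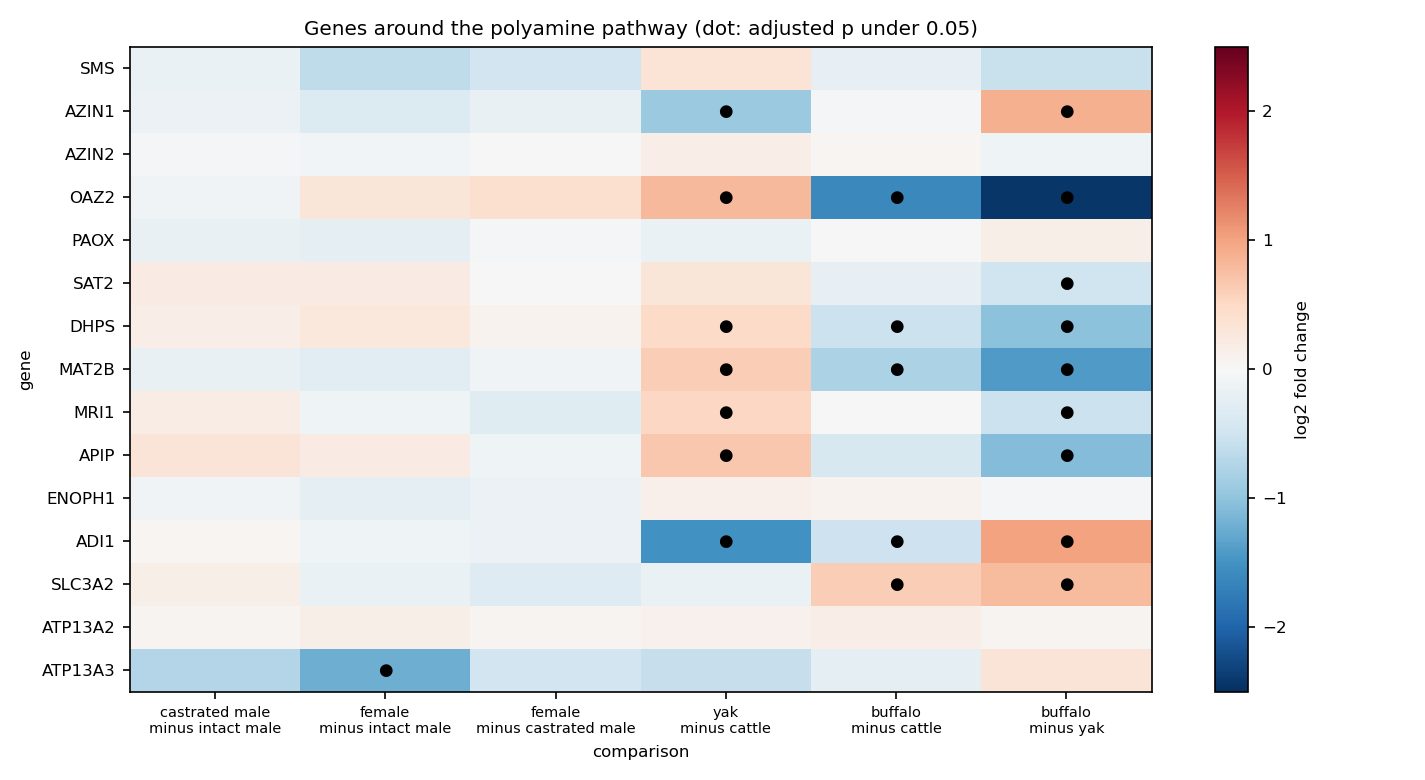
Log2 fold change (colour) of 15 further genes around the polyamine pathway (rows) in 6 comparisons (columns), with a dot at an adjusted p under 0.05. Among cattle only ATP13A3 has a dot, in females against intact males, and the strongest colour is OAZ2 in buffalo against yak (-2.42).

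For each member's brightest probe set, the 3 named genes with the highest Pearson correlation of log2 values over the 9 cattle arrays were taken from 9193 probe sets, as a description without a test, since the arrays share groups and the best of many is always high. SAT1 was followed most closely by LRRC8C, a subunit of volume-regulated anion channels, CFD, a complement protease of fat cells, and NUCB2, a calcium-binding protein, with r of 0.98 each. All 3 also averaged most in intact males among cattle. Over all 15 arrays their r with SAT1 was 0.90, 0.55 and 0.70. ODC1 was followed by ABI2, SMAD4 and ACAP1 (0.94, 0.94 and 0.91), of which SMAD4, a mediator of TGF-beta signals, kept 0.82 over 15 arrays. AMD1 was followed by GRPEL1, NUDT4 and BAP1 (0.95, 0.93 and 0.91), of which NUDT4 kept 0.87 and GRPEL1 had -0.33. OAZ1 was followed by PSMC5, a proteasome ATPase (0.95, and 0.84 over 15), MBLAC1 and GLTP (0.91 and 0.91, and -0.26 and -0.22 over 15). SRM was followed by WDR44, STMN2 and METTL26 (0.92, 0.92 and 0.91, and 0.12, 0.63 and 0.72 over 15).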

How the data were processed

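Total RNA was extracted with Trizol, and biotin-labelled cRNA made from 6 µg was hybridised to Affymetrix bovine arrays, per the labels' protocols. The deposited table holds the authors' probe set intensity on a linear scale, 24128 probe sets by 15 arrays. No source used here names its software or how it was normalised, and arrays have no read depth, so their number limits the precision. Genes were named from the platform annotation, and Entrez identifiers changed 0 symbols.

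The 112 control probe sets were set aside, and log2(intensity + 16) was taken without further normalisation. Those whose mean did not exceed the 40th percentile of all means (6.42) were not tested, which left 14409. Models were fitted over all of them in R 4.3.3 with limma 3.58.1 (empirical Bayes with a trend), on the 9 cattle arrays for cattle contrasts and on all 15 for species contrasts, with the 3 cattle groups weighted equally. Adjusted p are two-sided, Benjamini-Hochberg, with a threshold of 0.05. The steps were tested on simulated data. An exact permutation test of 3 arrays against 3 cannot go below 0.1. Arrays of 1 group are biological replicates, per the labels. No 2 arrays held identical values.

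A gene stands by its brightest probe set. Pathway genes were named where they passed in a contrast, with SMS besides, and PAOX and ATP13A2 for ranges that lay apart. Members, lists and tests were chosen with earlier results of these data known. Alternatives were pseudocounts of 1 and 64, no filter, quantile normalisation, median centring, no trend, array weights, the replicate block, all 15 arrays in 1 fit, cattle without intact males, and leaving out each array.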

Additional observations from a re-analysis of the deposited data

How the results depend on the processing

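With 3 arrays a group, leaving out 1 array moved many calls. The number of member probe sets called ranged from 0 to 1 for castrated minus intact male, 0 to 1 for female minus intact male, 0 to 1 for any difference among cattle, 0 to 2 for yak minus cattle, 1 to 3 for buffalo minus cattle and 1 to 4 for buffalo minus yak, and stayed at 0 for female minus castrated male. Array weights, whose estimation stopped before it converged, gave 4, 2, 4, 3 and 5 calls for castrated minus intact male, female minus intact male, any difference among cattle, yak minus cattle and buffalo minus yak. Castrated minus intact male gave 1 after quantile normalisation and 1 with all 15 arrays in 1 fit. Buffalo minus yak gave 2 without the filter and 2 with median centring, and buffalo minus cattle gave 1 with cattle without intact males. Here and above, counts under an alternative stand without the share of all probe sets called in that setting. Nothing is read from them about the members or the pathway genes.

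Deviations from the group mean correlated above 0.1 in 3 of 9 same-numbered cattle pairs and in 6 of 30 same-numbered pairs in all. The median r was 0.066 in cattle and 0.0010 in all, against -0.0044 and 0.011 for differently numbered arrays. Without a test these values cannot decide whether the numbers mark pairs. The fit as reported did not take them as pairs. With the replicate block the count for any difference among cattle was 0 (SAT1 limma adjusted p = 0.0680), and no other member call changed. The block took ATP13A3 in female minus intact male to an adjusted p of 0.0621, SMS there to 0.0437 and AZIN1 in buffalo minus yak to 0.0504.

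Signs turned only in values that did not pass in the fit as reported. Quantile normalisation gave OAZ1 0.0035 in female minus intact male, and ODC1 0.065, SAT1 0.15 and SMS 0.093 in buffalo minus cattle. Median centring gave OAZ1 0.0033 in female minus intact male. Array weights gave ODC1 -0.076 in female minus castrated male, and cattle without intact males gave SAT1 0.13 for yak and 0.36 for buffalo. With 1 array left out, values spanned 0 in several comparisons. In castrated minus intact male OAZ1 ran from -0.041 to 0.13 and SMS from -0.39 to 0.035. In female minus intact male AMD1 ran from -0.041 to 0.39 (brighter) and from -0.34 to 0.033 (dimmer), SRM from -0.25 to 0.040 and OAZ1 from -0.11 to 0.058. In female minus castrated male ODC1 ran from -0.33 to 0.23. In buffalo minus cattle ODC1 ran from -0.52 to 0.22, the dimmer AMD1 from -0.016 to 0.79 and SAT1 from -0.32 to 0.099. The causes were not tested. Groups left with 2 arrays were assumed to vary like the others. Signal over background is unknown, since no detection calls were used.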
